A study of Drosophila melanogaster with 4 samples.

Results

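Hairpin RNA precursors and the messenger RNAs that their small interfering RNAs (siRNAs) target were examined in adult male Drosophila melanogaster with mutations in Ago2. The members were 8 genes of the 13990 in the table, picked by name: the precursor genes CG4068, CR18854, CR32205, CR32207 and pncr009:3L, and the target genes mus308, CG8289 and ATPsyn-beta. Expression had been measured by mRNA sequencing in 4 genotypes, with 1 value per gene and genotype. These were V966M homozygotes (V966M/ V966M), V966M heterozygotes (V966M over the balancer TM3,twi-GFP,Sb,Ser), 51B homozygotes (51B / 51B) and 51B heterozygotes (51B over TM3, Ser, y+). Both alleles are mutations of Ago2, and 51B is known as a deletion allele. All flies were males aged 0 to 16 hr, grown at 25 °C, and RNA came from whole animals. TM3 is a balancer of chromosome 3, that is, a copy with inversions that keep it from recombining. Each heterozygote therefore carries another copy of chromosome 3 than its homozygote, on which Ago2 itself and 4 of the 8 members lie. The effect of Ago2 and that of the balancer chromosome cannot be told apart for any member, since every heterozygote carries TM3 and no homozygote does. Between V966M and 51B flies, the allele cannot be told apart from the stock that carries it. The heterozygotes of the alleles also differ in their TM3 balancer. In whole animals, fewer cells of a type and less RNA per cell cannot be told apart either.

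Hairpin RNAs are long transcripts with inverted repeats that fold back on themselves. In flies Dicer-2, assisted by a Loquacious isoform, cuts the stem into siRNAs, which are loaded into Argonaute 2, and the loaded protein cleaves transcripts with matching sequence. Some hairpins give siRNAs that match the messenger RNA of a single gene or a small family, and this branch of RNA interference is known for its role in the testis. The CG4068 hairpin is known to target mus308, which encodes DNA polymerase theta, an enzyme of DNA break repair. The CR18854 hairpin is known to target CG8289, a gene for a chromodomain protein. ATPsyn-beta, which encodes the catalytic beta subunit of mitochondrial ATP synthase, is a known target of a further hairpin gene that is not among the members. The hairpins of CR32205, CR32207 and pncr009:3L lie near each other on 3L and are known to target CG32208 (its locus tag in the reference annotation), a small gene that lies among them.

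The table's rows did not all measure a hairpin alone. The row CG4068 covers X from 4820695 to 4832077 in dm3. In a later reference annotation CG4068 is renamed as the protein-coding gene CG44774, and the hairpin that makes the siRNAs is a separate gene, hpRNA:CR46342, which overlaps it on the same strand. The value of the row is thus not that of the hairpin alone, and how far it measures the precursor is not known. It is called CG4068 throughout, and its levels and ratios are those of the row. The other precursors are annotated there as hairpin genes, and each overlaps a gene on the opposite strand: IP3K1 for CR18854, the pseudogene CR33255 (CG33255 in the table) for CR32205, the pseudogene CR42842 for CR32207, and CG32212 for pncr009:3L. The target mus308 (PolQ in that annotation) overlaps CG12279 on the opposite strand in the same way, and ATPsyn-beta overlaps CG11076. Whether fragments were counted by strand is not given in the sources used here, so reads from a gene and its antisense partner cannot be told apart. CR18854, CR32205, pncr009:3L and mus308 share the locus given in the table with such a partner.

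The error of each value is the interval deposited around it. Values are in FPKM, in which fragments are counted per length of transcript and per size of the library. The members' half-widths had a median of 19.5% in V966M homozygotes and 26.8% in V966M heterozygotes, and 30.5% in 51B homozygotes and 17.5% in 51B heterozygotes. A change is given as log2((FPKM + 1)/(FPKM + 1)), which understates changes of low genes, with a half-width propagated from both intervals. A call, higher or lower, needed both a 2-fold change by that measure and intervals that did not overlap. The median log2 change of the 10872 analysed genes was -0.25 in V966M homozygotes over heterozygotes, 0.07 in 51B homozygotes over heterozygotes, 0.26 in V966M over 51B heterozygotes and -0.11 in V966M over 51B homozygotes. Values divided by the median ratio of each genotype are called rescaled. AGO2 had 101 FPKM (83.4 to 118) in V966M homozygotes and 150.02 FPKM (111 to 189) in V966M heterozygotes, and 6.33 FPKM (4.50 to 8.16) in 51B homozygotes and 46.5 FPKM (39.7 to 53.3) in 51B heterozygotes. Its transcript was thus lower in the library labelled 51B homozygote, whereas a change of protein sequence such as V966M need not alter the transcript level.

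**Figure D1:**
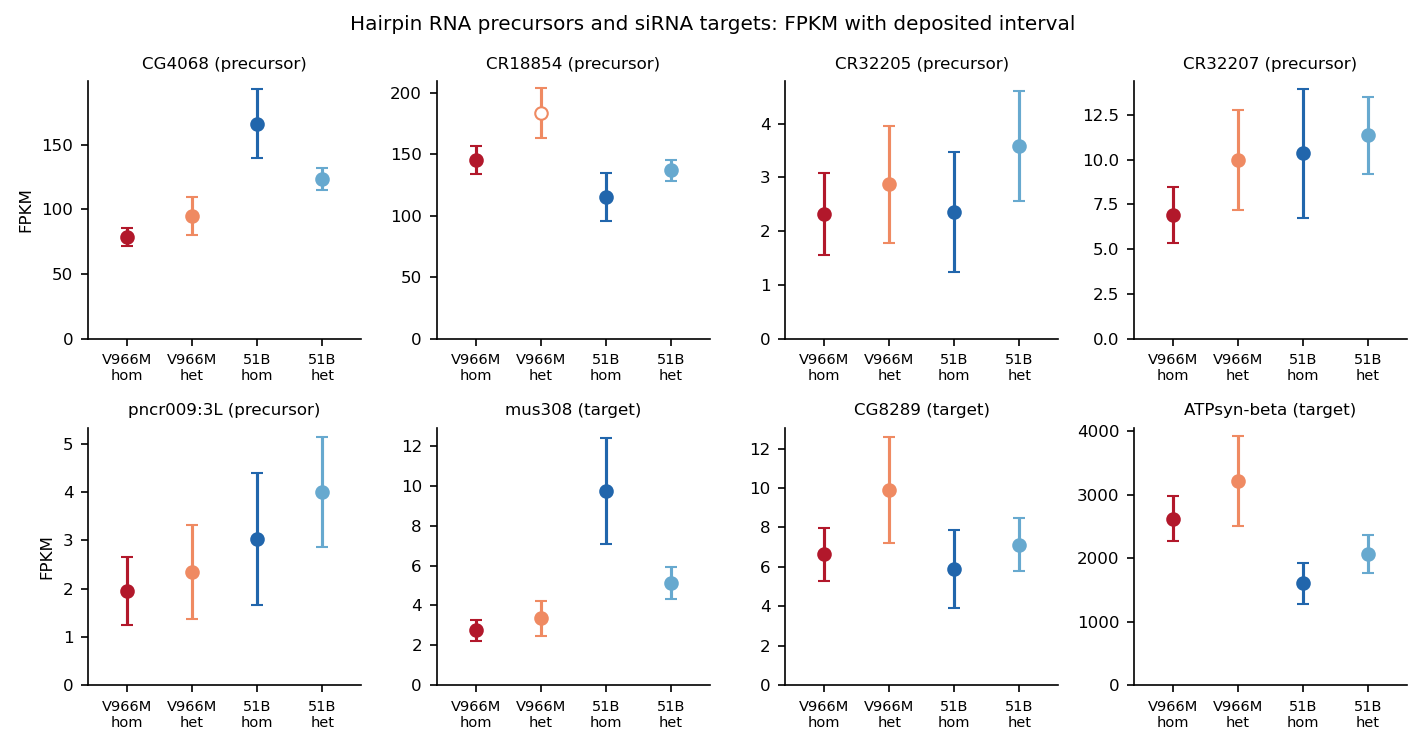
FPKM of the 5 precursor genes and 3 target genes in V966M homozygotes and heterozygotes and in 51B homozygotes and heterozygotes; points are the deposited values, bars the deposited intervals, each axis starts at 0, and the open point is a value whose quantification failed. CG4068 and mus308 are highest in 51B homozygotes, and ATPsyn-beta is lowest there.

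Of the precursors, CG4068 and CR18854 were abundant and the 3 hairpin genes of 3L were low. CG4068 had 78.3 FPKM (71.3 to 85.2) in V966M homozygotes and 94.7 FPKM (80.2 to 109) in V966M heterozygotes, and 166 FPKM (139 to 193) in 51B homozygotes and 123 FPKM (115 to 132) in 51B heterozygotes. Its level ran in the order 51B homozygotes, 51B heterozygotes, V966M heterozygotes, V966M homozygotes, and only the last neighbours in that order had overlapping intervals. In 51B the log2 change of homozygotes over heterozygotes was 0.43 ± 0.25, a 1.35-fold difference in FPKM, and after rescaling it was 0.30 with overlapping intervals. In V966M the change was -0.27 ± 0.25, close to the median of all genes, and -0.00 after rescaling. V966M homozygotes had less than 51B homozygotes, with a log2 change of -1.08 ± 0.26, which was called. After rescaling this change was -0.96, short of the threshold.

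CR18854 had 145 FPKM (134 to 157) in V966M homozygotes and 184 FPKM (164 to 204) in V966M heterozygotes, and 116 FPKM (96.0 to 135) in 51B homozygotes and 137 FPKM (128 to 145) in 51B heterozygotes. Its quantification had failed in V966M heterozygotes, so it was the 1 member left out of the counts. The locus runs on 2L from 9782390 to 9791958 and also holds IP3K1, an inositol trisphosphate kinase gene, and CG4036. IP3K1 had 10.8 and 14.2 FPKM in V966M homozygotes and heterozygotes, and 10.4 and 9.63 FPKM in 51B homozygotes and heterozygotes, far below its hairpin neighbour. In 51B, where both values of CR18854 were sound, the change was -0.24 ± 0.26 with overlapping intervals, and after rescaling -0.37 with intervals apart. CG4068 and CR18854 thus lay on opposite sides of 0 in 51B.

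CR32207 was the most abundant hairpin gene of 3L, with 6.91 FPKM (5.34 to 8.48) in V966M homozygotes and 10.002 FPKM (7.20 to 12.8) in V966M heterozygotes, and 10.4 FPKM (6.76 to 13.9) in 51B homozygotes and 11.4 FPKM (9.20 to 13.5) in 51B heterozygotes. CR32205 had 2.31 FPKM (1.55 to 3.08) in V966M homozygotes and 2.87 FPKM (1.79 to 3.95) in V966M heterozygotes, and 2.35 FPKM (1.23 to 3.47) in 51B homozygotes and 3.59 FPKM (2.56 to 4.62) in 51B heterozygotes. For pncr009:3L the values were 1.95 FPKM (1.25 to 2.65) in V966M homozygotes and 2.34 FPKM (1.37 to 3.31) in V966M heterozygotes, and 3.03 FPKM (1.65 to 4.40) in 51B homozygotes and 3.995 FPKM (2.86 to 5.13) in 51B heterozygotes. In the homozygote of both alleles the deposited value of all 3 genes was below that of the heterozygote, and in each of these pairs the intervals overlapped. In V966M the log2 changes were -0.48 ± 0.47 for CR32207, -0.22 ± 0.52 for CR32205 and -0.18 ± 0.54 for pncr009:3L, where the median of all genes was -0.25. After rescaling they were -0.23 for CR32207, -0.03 for CR32205 and 0.01 for pncr009:3L, so the sign of the last turned. Their changes in 51B were -0.45 ± 0.58 for CR32205, -0.31 ± 0.59 for pncr009:3L and -0.12 ± 0.52 for CR32207, none of them beyond its half-width, and all 3 were below 0 after rescaling too (-0.55, -0.41 and -0.24).

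Among the targets, mus308 separated the genotypes most. It had 2.74 FPKM (2.23 to 3.26) in V966M homozygotes and 3.35 FPKM (2.47 to 4.23) in V966M heterozygotes, and 9.75 FPKM (7.10 to 12.4) in 51B homozygotes and 5.13 FPKM (4.31 to 5.94) in 51B heterozygotes. The 51B homozygote lay above the other 3 genotypes with intervals apart, and both V966M genotypes overlapped each other. In 51B the log2 change was 0.81 ± 0.40, a 1.90-fold difference in FPKM that fell short of the call, and 0.70 after rescaling. In V966M it was -0.22 ± 0.35, and -0.01 after rescaling. V966M homozygotes had less mus308 than 51B homozygotes, with a log2 change of -1.52 ± 0.41 that was called, also after rescaling (-1.43). The heterozygotes, both with 1 wild-type copy of Ago2 on the balancer, differed in the same direction by -0.49 ± 0.35 with intervals apart. CG12279, the antisense partner of mus308 on 3R, had 22.5 FPKM (15.3 to 29.6) in 51B homozygotes and 19.6 FPKM (16.0 to 23.2) in 51B heterozygotes, with a log2 change of 0.19 ± 0.51.

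The changes of the remaining targets lay below 0 in 51B, and neither was called. CG8289, on X from 17527724 to 17530075, had 6.63 FPKM (5.29 to 7.97) in V966M homozygotes and 9.91 FPKM (7.20 to 12.6) in V966M heterozygotes, and 5.89 FPKM (3.90 to 7.88) in 51B homozygotes and 7.12 FPKM (5.77 to 8.46) in 51B heterozygotes. The order of its levels had no neighbours with intervals apart, and its change was -0.52 ± 0.44 in V966M and -0.24 ± 0.48 in 51B. ATPsyn-beta, on chromosome 4 from 1052440 to 1055175, had 2623 FPKM (2264 to 2982) in V966M homozygotes and 3217 FPKM (2514 to 3919.6) in V966M heterozygotes, and 1601 FPKM (1273 to 1929) in 51B homozygotes and 2066 FPKM (1768 to 2365) in 51B heterozygotes. Its change was -0.29 ± 0.37 in V966M and -0.37 ± 0.36 in 51B, with overlapping intervals as deposited, and in 51B -0.49 with intervals apart after rescaling. V966M flies had more of it than 51B flies, by 0.71 ± 0.35 between homozygotes and 0.64 ± 0.38 between heterozygotes, with intervals apart in both and neither called. After rescaling these differences were 0.83, with intervals apart, and 0.36, with overlapping intervals.

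**Figure D2:**
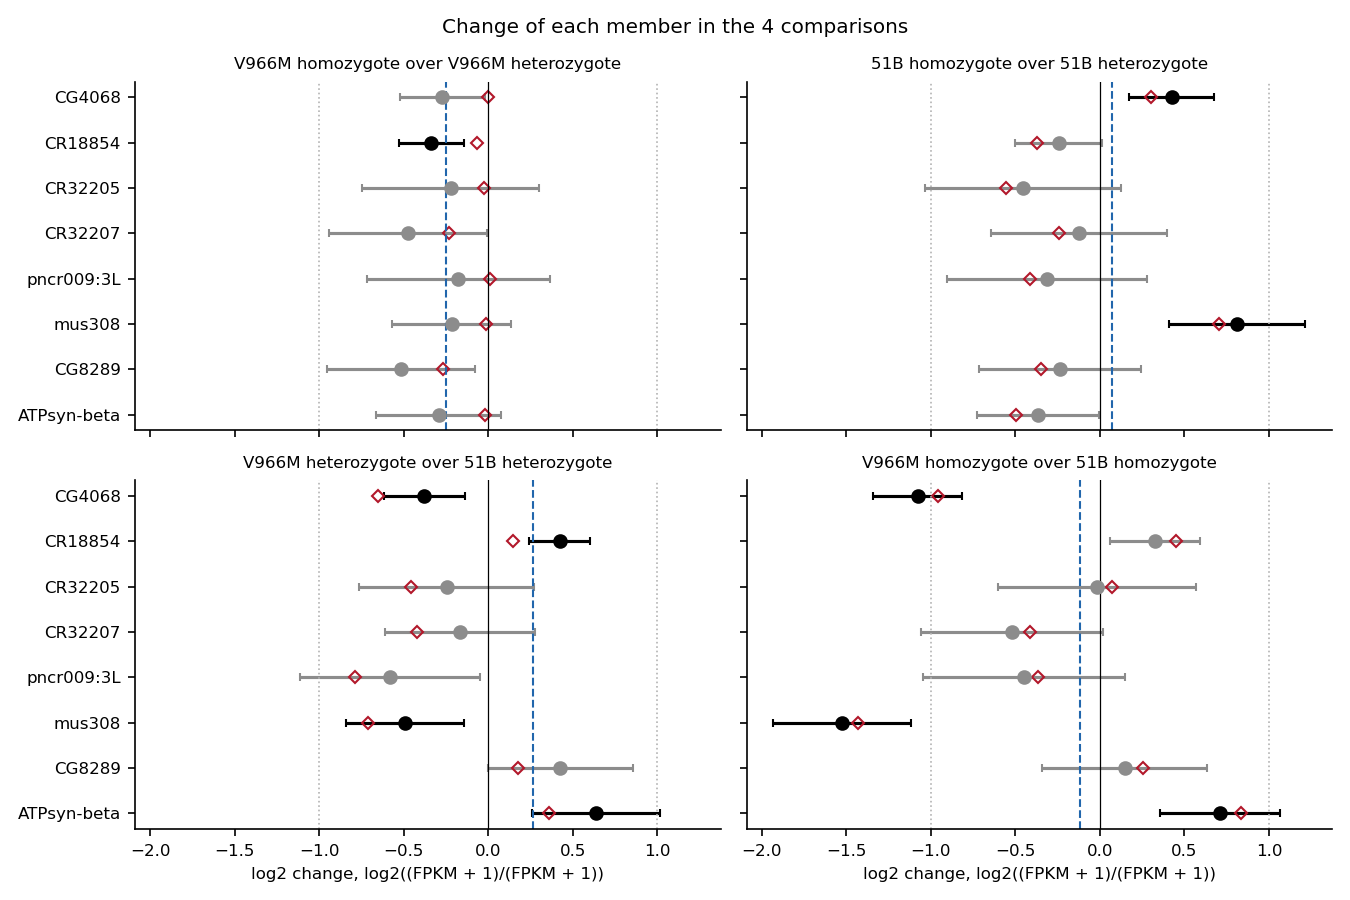
Log2 change of each precursor and target gene in the 4 comparisons (x axis); filled points with bars are changes as deposited with their propagated half-widths, black where the deposited intervals do not overlap and grey where they do, and open diamonds are rescaled changes. Dashed lines mark the median of all analysed genes and dotted lines the 2-fold threshold, which CG4068 and mus308 pass in V966M over 51B homozygotes.

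In V966M homozygotes over heterozygotes 0 of the 7 analysed members were called, where 0.414% of all genes were, and 0 of 7 had intervals apart, where 8.49% of all genes had. Their median log2 change was -0.27 beside -0.25 for all genes, and after rescaling -0.02 beside -0.00. In 51B homozygotes over heterozygotes 0 of 7 were called, where 2.81% of all genes were, and the intervals of CG4068 and mus308 were apart (2 of 7), where those of 12.0% of all genes were. The median of the members was -0.24 beside 0.07 for all genes, and after rescaling -0.35 beside -0.04. In 51B the median was -0.22 over the 4 analysed precursors (range -0.45 to 0.43) and -0.24 over the 3 targets (range -0.37 to 0.81). In each class 1 gene lay above 0, CG4068 and mus308. With so few genes, whose changes went both ways, the medians do not compare the classes.

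In V966M over 51B heterozygotes 0 of 7 members were called, where 3.04% of all genes were. The intervals of CG4068, mus308 and ATPsyn-beta were apart (3 of 7), where those of 21.0% of all genes were. After rescaling those of CG4068, mus308 and pncr009:3L (-0.79) were apart, where those of 16.0% of all genes were. The median of the members was -0.25 beside 0.26 for all genes, and after rescaling -0.46 beside 0.02. All 4 analysed precursors lay below 0 on both scales. In V966M over 51B homozygotes CG4068 and mus308 were called lower (2 of 7), where 2.78% of all genes were called lower and 5.53% in either direction. The intervals of CG4068, mus308 and ATPsyn-beta were apart there too, where those of 18.2% of all genes were. After rescaling mus308 alone was called lower in that comparison, where 1.82% of all genes were. The median of the members between homozygotes was -0.45 beside -0.11 for all genes, and after rescaling -0.36 beside -0.01. These comparisons reuse the libraries of the comparisons within each allele and are not independent of them.

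The alleles were set side by side for each member, since the same contrast exists in both. The change of mus308 in 51B exceeded that in V966M by 1.03 ± 0.54 on the log2 scale, and that of CG4068 by 0.70 ± 0.36. After rescaling these differences were 0.71 and 0.30. For the other 6 members, CR18854 with its failed V966M heterozygote value included, they ranged from -0.23 for CR32205 to 0.35 for CR32207, all within their half-widths. After rescaling these 6 ranged from -0.53 for CR32205 to -0.01 for CR32207, and CR18854, CG8289 and CR32207 had turned sign. With 1 value per genotype none of these differences could be tested.

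Homozygotes and heterozygotes could be compared over both alleles together, which treats the alleles as replicates of each other. With allele as a block, the difference in level between alleles is removed. A difference between alleles in the homozygote change stays in the error. In a limma fit with allele as the block and 1 residual degree of freedom, chosen after values had been seen, 0 of the 7 members had an adjusted p below 0.05. This held as deposited, with 0 members at an unadjusted p below 0.05, and after rescaling, with 1 (CG8289). Of all 10872 genes, 106 had an adjusted p below 0.05 in that fit as deposited, and 0 after rescaling. At an unadjusted p below 0.05 there were 689 genes as deposited and 942 after rescaling. The counts of members thus do not set them apart from all genes. As deposited, limma took each gene's variance wholly from a trend over the 10872 genes (infinite prior degrees of freedom). Those p-values thus do not measure a member's own spread between alleles. After rescaling the prior degrees of freedom were 3.973. The log2 change of mus308 over both alleles was 0.30 as deposited, with a Benjamini-Hochberg adjusted p of 1 in limma, and 0.35 after rescaling, with an adjusted p of 0.599. For CG8289 it was -0.38 as deposited (adjusted p = 1 in limma) and -0.31 after rescaling (adjusted p = 0.559).

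**Figure D3:**
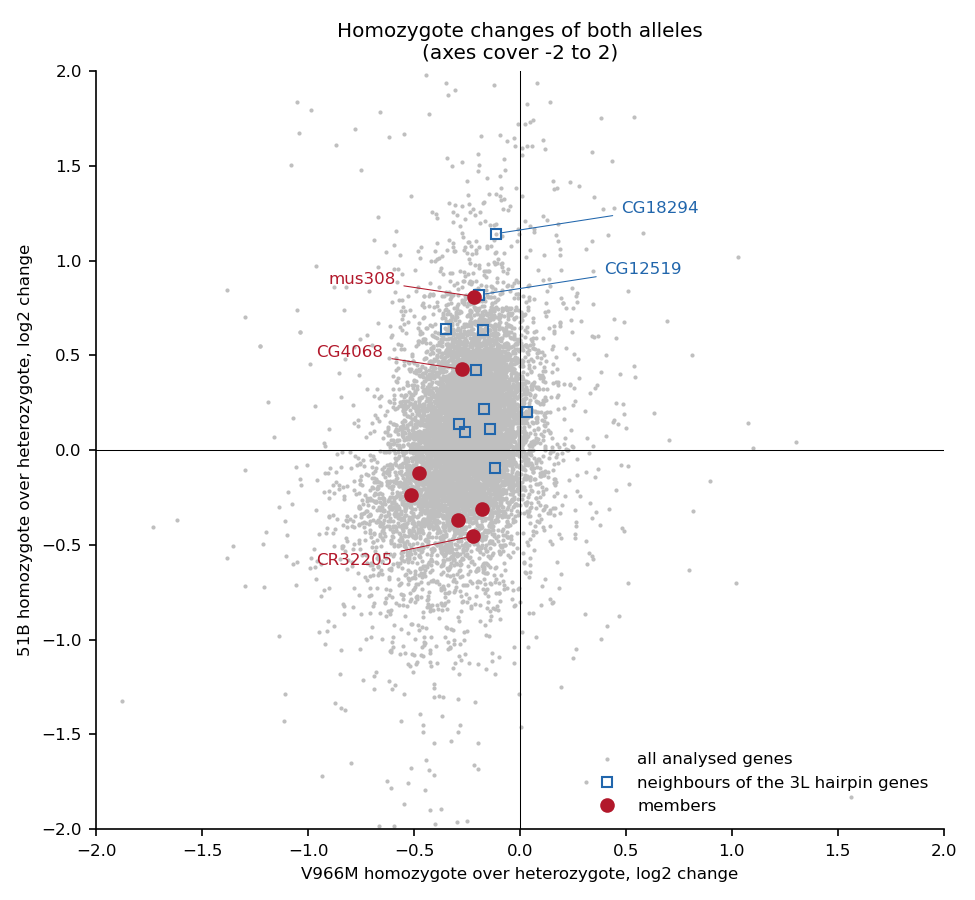
Log2 change of homozygotes over heterozygotes in V966M (x axis) and in 51B (y axis), as deposited; grey points are all analysed genes, red points the 7 analysed precursor and target genes, and blue squares the 11 analysed genes that lie among the hairpin genes of 3L. The axes cover -2 to 2 and leave out 43 genes; mus308 and CG4068 lie above 0 in 51B and below 0 in V966M, and the other 5 members lie below 0 in both.

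Each known pair was also expressed as the ratio of precursor FPKM to target FPKM within a genotype, which does not depend on the scaling of the libraries. CG4068 exceeded mus308 by 28.5 ± 5.95-fold in V966M homozygotes and 28.3 ± 8.61-fold in V966M heterozygotes, and by 17.0 ± 5.38-fold in 51B homozygotes and 24.1 ± 4.20-fold in 51B heterozygotes. The 51B homozygote had the lowest ratio, its range of 11.7 to 22.4 lay just below the 22.6 to 34.5 of V966M homozygotes, and it overlapped that of 51B heterozygotes (19.9 to 28.3). With 1 FPKM added to both genes the ranges of 51B homozygotes (11.0 to 20.1) and V966M homozygotes (17.7 to 24.6) overlapped as well. CR18854 exceeded CG8289 by 21.9 ± 4.75-fold in V966M homozygotes and 18.6 ± 5.46-fold in V966M heterozygotes, and by 19.6 ± 7.40-fold in 51B homozygotes and 19.2 ± 3.83-fold in 51B heterozygotes. All ranges of that pair overlapped.

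**Figure D4:**
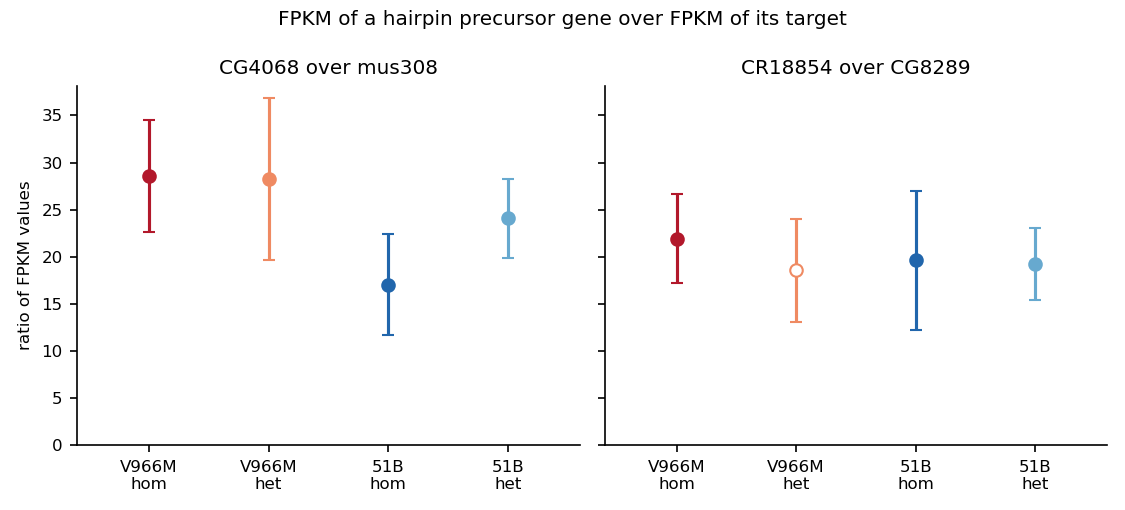
Ratio of FPKM values of CG4068 over mus308 (left) and CR18854 over CG8289 (right) in V966M homozygotes and heterozygotes and in 51B homozygotes and heterozygotes; bars are half-widths propagated from the deposited intervals, and the open point rests on a value whose quantification failed. The ratio of CG4068 to mus308 is lowest in 51B homozygotes, at 17.0, and that of CR18854 to CG8289 stays between 18.6 and 21.9.

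The target attributed to the 3 hairpin genes of 3L, CG32208, did not separate the genotypes. It had 1.45 FPKM (0.780 to 2.11) in V966M homozygotes and 1.93 FPKM (1.02 to 2.85) in V966M heterozygotes, and 1.93 FPKM (0.862 to 3.0002) in 51B homozygotes and 1.74 FPKM (0.939 to 2.55) in 51B heterozygotes, and all intervals overlapped. Its neighbours were therefore examined as well, by a rule of position chosen after values had been seen: all genes of the table between CR32205 and pncr009:3L, a stretch of 65.6 kb from 19415938 to 19481488 in dm3. It held 12 genes besides the hairpins, CG32208 included, of which 11 were analysed and CG14095 was too low.

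In 51B 1 of these 11 genes was called higher, where 1.69% of all genes were. This was CG18294, with 20.9 FPKM (13.5 to 28.3) in 51B homozygotes and 8.93 FPKM (6.62 to 11.2) in 51B heterozygotes, a log2 change of 1.14 ± 0.59 and 1.03 after rescaling, where 1.29% of all genes were called higher. Division by summed FPKM gave 0.95, and the call was lost, as it was with a pseudocount of 5 FPKM. CG12519 had 11.4 FPKM (6.97 to 15.9) in 51B homozygotes and 6.04 FPKM (4.25 to 7.83) in 51B heterozygotes, and its intervals overlapped (0.82 ± 0.63). CG14096 had 6.26 FPKM (3.45 to 9.07) in 51B homozygotes and 3.68 FPKM (2.30 to 5.07) in 51B heterozygotes, also with overlap. In V966M none of the 11 was called, and CG18294 had 4.74 FPKM (3.25 to 6.23) in homozygotes and 5.21 FPKM (3.26 to 7.16) in heterozygotes. Over the 11 genes the median log2 change was 0.22 in 51B and -0.17 in V966M, beside 0.07 and -0.25 for all genes, and after rescaling 0.13 and 0.02.

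Between homozygotes, CG18294 (-1.93 ± 0.62), CG12519 (-1.59 ± 0.65), CG14096 (-1.36 ± 0.70) and CG33255 (-1.14 ± 0.65) were called lower in V966M than in 51B, as deposited and after rescaling. These were 4 of the 11 genes, where 2.78% of all genes were called lower as deposited. CG33255 is the antisense partner of CR32205 and had 9.99 FPKM in V966M homozygotes and 23.2 FPKM in 51B homozygotes, while CR32205 itself had 2.31 and 2.35 FPKM. The hairpin genes in the same stretch were not called in any comparison. The stretch lies on chromosome 3, of which only the heterozygotes carry a balancer copy. Between homozygotes, the allele cannot be told apart from the rest of its chromosome 3 or from its stock. Where neighbours share sequence with a hairpin, their fragments may have been divided between rows.

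**Figure D5:**
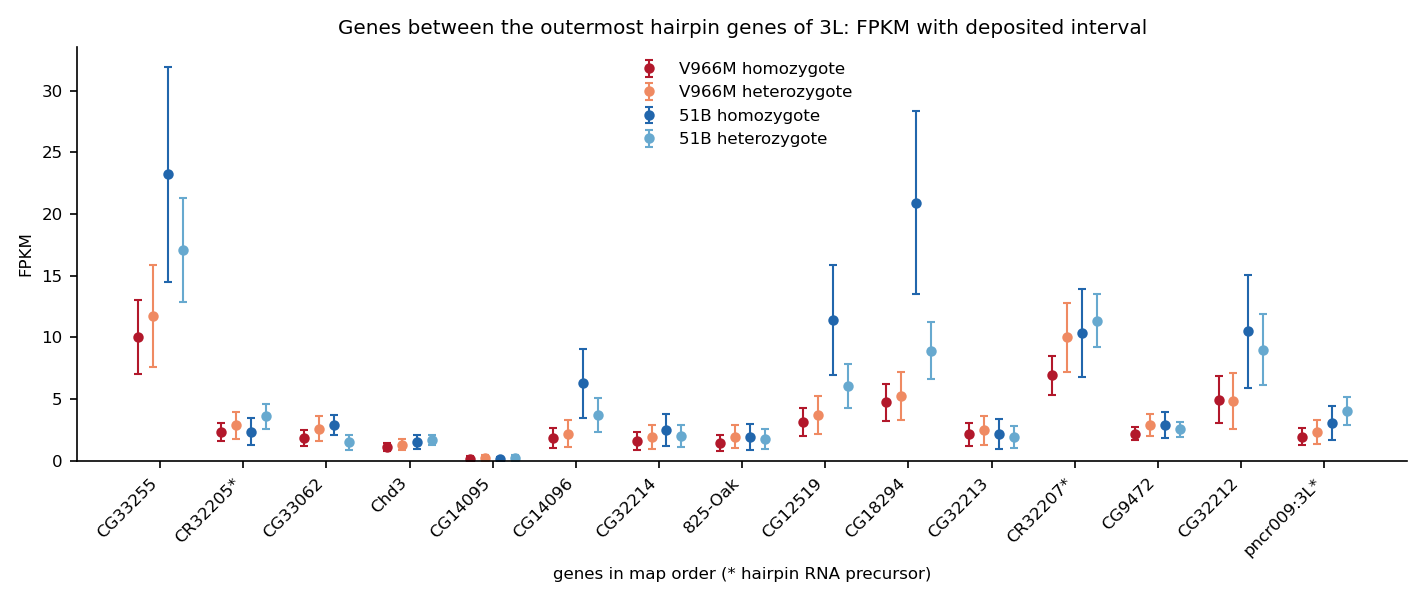
FPKM of the 15 genes from CR32205 to pncr009:3L in map order, with deposited intervals, in V966M homozygotes, V966M heterozygotes, 51B homozygotes and 51B heterozygotes; asterisks mark hairpin precursor genes. CG33255, CG18294 (at 20.9 FPKM), CG12519, CG32212, CG14096, CG9472, CG33062 and CG32214 are highest in 51B homozygotes, and the other neighbours are not. Of these only CG18294 has intervals apart from those of 51B heterozygotes. The marked hairpin genes are highest in 51B heterozygotes, with intervals that overlap those of 51B homozygotes.

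The machinery that makes and uses the siRNAs was described from a list of 9 names, of which 8 were in the table and 7 analysed. AGO2 was called lower in 51B homozygotes, and no other gene of the list was called within either allele. Dcr-2, the nuclease that makes siRNAs, had 7.22 and 10.6 FPKM in V966M homozygotes and heterozygotes, and 5.89 and 6.78 FPKM in 51B homozygotes and heterozygotes. Its partner r2d2 had 6.79 and 8.45 FPKM in V966M homozygotes and heterozygotes, and 5.23 and 5.36 FPKM in 51B homozygotes and heterozygotes. The levels of loqs, whose products assist both Dicers, were 32.7 and 34.1 FPKM in V966M homozygotes and heterozygotes, and 48.7 and 43.0 FPKM in 51B homozygotes and heterozygotes. For the RNA-binding protein gene DIP1 they were 53.6 and 55.7 FPKM in V966M homozygotes and heterozygotes, and 100.1 and 93.1 FPKM in 51B homozygotes and heterozygotes. DIP1 was called lower in V966M than in 51B heterozygotes after rescaling only (-1.01), and AGO2 was called higher in V966M than in 51B flies of either zygosity. The C3PO subunit genes trsn and Trax overlapped in all pairs, and Hen1, the siRNA methyltransferase gene, was not analysed owing to a failed quantification in V966M homozygotes.

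Of 22 analysed DNA repair genes other than mus308, 0 were called in any comparison, where 0.414% to 5.53% of all genes were as deposited. At these shares 0 calls do not set this list, or the shorter ones below, apart from all genes. The median log2 change of the DNA repair genes in 51B was 0.17 (0.08 after rescaling), with the highest at 0.52, below the 0.81 of mus308. The largest differences in that list were those of mre11, a nuclease gene of break repair, at 0.90 ± 0.44 in V966M over 51B heterozygotes, and hay, a helicase gene of excision repair, at 0.75 ± 0.40 there. In FPKM mre11 differed 2.30-fold between heterozygotes with intervals apart, and with 1 FPKM added it fell short of the call. Of 13 analysed ATP synthase genes other than ATPsyn-beta, 0 were called, with medians of -0.20 in V966M and -0.16 in 51B (0.07 and -0.29 after rescaling), beside -0.29 and -0.37 for ATPsyn-beta (-0.02 and -0.49 after rescaling). Their widest differences were those of sun, the epsilon subunit gene, at 0.85 ± 0.15, and l(1)G0230, the delta subunit gene, at 0.68 ± 0.47, both in V966M over 51B heterozygotes. CG5389, a paralogue of ATPsyn-beta, had 8.10 and 8.85 FPKM in V966M homozygotes and heterozygotes, and 12.2 and 11.6 FPKM in 51B homozygotes and heterozygotes. Of 10 analysed chromodomain and heterochromatin genes set beside CG8289, 0 were called, and Su(var)3-9 (0.45 ± 0.36 in V966M over 51B heterozygotes) and Chd1 (-0.45 ± 0.45 in V966M over 51B homozygotes) differed most.

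Hairpin siRNAs are known from the testis, so testis markers were set beside the members. All 19 were detected, and their summed level was 2177 FPKM in V966M homozygotes and 2908 FPKM in V966M heterozygotes, and 3783 FPKM in 51B homozygotes and 3753 FPKM in 51B heterozygotes. In V966M over 51B homozygotes the list had a median log2 change of -0.65 (-0.53 after rescaling), with 18 of 19 below 0 on both scales. Mst35Bb, betaTub85D and Prosalpha6T were called lower in V966M, where 2.78% of all genes were, and none of them after rescaling. Between heterozygotes the median was -0.34 (-0.59 after rescaling), with 16 of 19 below 0 as deposited and 18 after rescaling, and none called. Like the summed level of the testis markers, CG4068 and mus308 were higher in both 51B genotypes than in both V966M genotypes. The part of the testis markers in that difference was not tested. Within 51B the testis markers made up 0.660% of all FPKM in homozygotes and 0.760% in heterozygotes, and their median log2 change was -0.11 (-0.24 after rescaling). Of the 19 markers 13 lay below 0 there, and none was called. Within V966M, djl was the 1 marker called lower, where 0.350% of all genes were, and it was not called after rescaling. Markers of female fat body and ovary, which males should lack, summed to between 20.8 and 28.2 FPKM over 11 genes in every genotype, with none of them at 0. The highest were Yp3 (6.34 to 8.89 FPKM), Cp15 (4.68 to 10.9 FPKM) and Cp18 (2.50 to 4.35 FPKM). Yp1 and Yp2 reached at most 0.398 and 0.487 FPKM. Of the 11 markers Cp15, an eggshell gene, was called higher in 51B homozygotes, with 10.9 FPKM against 4.68 FPKM in 51B heterozygotes, and not after rescaling.

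Markers of other organs also differed between the stocks. The 5 gut markers in the table, all detected, summed to 1738 FPKM in V966M homozygotes and 2406 FPKM in V966M heterozygotes, and to 621 FPKM in 51B homozygotes and 796 FPKM in 51B heterozygotes. The gut sum, like ATPsyn-beta, was thus higher in both V966M genotypes than in both 51B genotypes, whereas CG4068 and mus308 were lower in V966M. In 51B homozygotes over heterozygotes Jon74E and Jon25Bi, both gut protease genes, were called lower, where 1.12% of all genes were. Between heterozygotes Jon74E, alphaTry, betaTry and Amy-p were called higher in V966M, where 2.73% of all genes were. Between homozygotes Jon74E, Jon25Bi, betaTry and Amy-p were called higher in V966M, where 2.75% of all genes were. The 10 accessory gland markers, none at 0, summed to 1347 FPKM in V966M homozygotes and 1654 FPKM in V966M heterozygotes, and to 909 FPKM in 51B homozygotes and 1252 FPKM in 51B heterozygotes. The 7 eye markers, none at 0, summed to 1138 FPKM in V966M homozygotes and 1346 FPKM in V966M heterozygotes, and to 1142 FPKM in 51B homozygotes and 848 FPKM in 51B heterozygotes. In 51B the eye sum, like mus308, was higher in homozygotes than in heterozygotes, and of its genes Rh6 was called higher and Rh5 lower, both of them rhodopsin genes of inner photoreceptors. The part of any of these lists in the values of the members was not tested.

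The genes whose pattern over the 4 genotypes was most like that of a member were found among the other 10871 analysed genes by Euclidean distance of centred log2(FPKM + 1) values. Nearest to mus308 were Cyp4e2, a cytochrome P450 gene, at 0.06, CG12519 at 0.08 and CG2065 at 0.12. Cyp4e2 had 8.75 and 10.4 FPKM in V966M homozygotes and heterozygotes, and 26.3 and 15.4 FPKM in 51B homozygotes and heterozygotes. CG12519 is one of the neighbours of the 3L hairpin genes described above. Nearest to CG4068 were CG15657 at 0.02, CG2137 at 0.04 and p-cup, known for expression in late spermatogenesis, at 0.04. With 4 values per gene this likeness is a description only.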

How the data were processed

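Adult males of 4 genotypes were analysed, with n = 1 each. The design text states 2 sequencings per genotype, whereas the deposited table holds 1 FPKM value, an interval and a status for each, per the file headers; the interval's level is not stated. The submitters' processing notes name TopHat, Cufflinks and dm3; the sources used here give neither versions nor a strand setting. Read depth is unknown because the deposited FPKM values hold no counts. The deposited interval served as the error.

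A status of OK in every genotype (13197 genes) and a mean of at least 1 FPKM were required, which left 10872 and 7 of 8 members. Changes used a pseudocount of 1 FPKM; calls needed a 2-fold change and intervals apart. Half-widths were propagated as the root of summed squares. No comparison of single genotypes could be tested. Homozygotes were also compared with heterozygotes over both alleles with limma 3.58.1 in R 4.3.3, with allele as a block. Rescaling factors were 0.936 and 1.13 for V966M homozygotes and heterozygotes, and 1.02 and 0.932 for 51B homozygotes and heterozygotes. Python 3.11.15, pandas 2.3.3 and NumPy 2.4.6 were used. The reference annotation, of a later build, gave names and overlaps only.

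Members and gene lists were chosen with earlier results of these data known. Named were all members, AGO2, genes sharing a member's locus, the siRNA list, CG32208 and CG5389, called genes (or else the 2 with the largest change) of the DNA repair, ATP synthase, chromodomain and testis lists, and 3 nearest patterns for mus308 and CG4068. The genes between the 3L hairpins, and called genes of the other marker lists, were added after values had been seen.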

Additional observations from a re-analysis of the deposited data

Results flagged for a closer look

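Named genes whose change of homozygotes over heterozygotes lay above 0 in one allele and below 0 in the other, as deposited and after rescaling, were singled out. With 1 value per genotype the difference between alleles was not tested, and a sign opposite to that in the other allele can come from values close to 0. The values are the log2 change in 51B minus that in V966M. Among the members the difference was 0.70 for CG4068, whose V966M change after rescaling was -0.00, and 1.03 for mus308, whose V966M change after rescaling was -0.01.

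Of genes related to the members, CG32208, the gene attributed as target to the 3L hairpins, differed by 0.36, the ATPsyn-beta paralogue CG5389 by 0.18 and DIP1 by 0.16. After rescaling the last pair turned sign, to -0.18 for CG5389 and -0.24 for DIP1, with the change in V966M then above that in 51B. Among genes of the other lists the difference was 0.53 for mre11 and 0.72 for betaTub85D. Genes with patterns like those of mus308 or CG4068 were chosen for this pattern, and the difference was 1.12 for CG2065 and 0.73 for CG15657. Of the genes that lie among the 3L hairpins, CG33062 differed by 0.99 and CG9472 by 0.43.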

How the results depend on the processing

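The cause of the changes below was not tested, except where fewer genes were left. Between homozygotes (V966M over 51B) 2 members were called, and 1 with a pseudocount of 5 FPKM (CG4068), after rescaling or division by summed FPKM (mus308 in both), and without genes sharing a locus or without chromosome 3 (CG4068 in both, with mus308 removed). Without chromosome 3, 3 members were left, with a median of 0.15 against -0.45 between homozygotes and 0.43 against -0.25 between heterozygotes. At a 1.5-fold threshold 1 member was called instead of 0 in 51B (mus308) and between heterozygotes (ATPsyn-beta). Intervals were apart, at any fold, for 12.0% of all genes in 51B and 21.0% between heterozygotes. Shares of all genes called are not given for this threshold, the other pseudocount, summed FPKM or fewer genes. Counts under those rules thus do not set the members, or the genes among the 3L hairpins, apart from all genes. Of the genes among the 3L hairpins, the 1 called in 51B (CG18294) became 0 with a pseudocount of 5 FPKM or after division by summed FPKM. Between heterozygotes 0 became 1 after rescaling (CG32212) and 2 after division by summed FPKM, and between homozygotes 4 became 2 with a pseudocount of 5 FPKM. With 1 FPKM added to both genes, the ratio of CG4068 to mus308 in V966M homozygotes was 21.2 against 28.5. Of 151 alternative values of these counts, medians and ratios, 136 stayed within 1.5 times the value given (counts) or within its error.

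Over all genes, rescaling changed the calls from 7 higher and 38 lower to 13 and 8 in V966M, from 184 and 122 to 140 and 158 in 51B, from 297 and 33 to 134 and 78 between heterozygotes, and from 299 and 302 to 362 and 198 between homozygotes. Within an allele no paired fit could be made, since each genotype has 1 value, and no replicate could be left out. With allele as the block over both alleles, 0 of 7 members passed in limma, as without the block, as deposited and rescaled. Over all genes 106 passed with the block and 34 without it as deposited, and 0 with or without it after rescaling (942 with the block and 130 without at an unadjusted p below 0.05). The 3L hairpin genes had half-widths of 0.45 to 0.60 on the log2 scale, so differences below 0.45 lay within the error. A call needed more, a 2-fold change with intervals apart.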
